A study of Bos taurus with 10 samples.

Results

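HMGCS1, NSDHL, ELOVL6 and ODC1 are 4 biosynthetic enzymes that were followed over 10 arrays of bovine RNA. They were picked by gene symbol, as enzymes of growing cells that read brighter in embryos than in adult tissues, so their rise is a description here and carries no test. The 4 genes were among 6732 genes that had a probe set with values and a single symbol, and their 6 probe sets were among 10186. The platform holds a further NSDHL probe set, which was blank on every array.

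HMGCS1, cytosolic HMG-CoA synthase, joins acetyl groups into HMG-CoA at the start of the mevalonate pathway, the route to cholesterol and isoprenoids. NSDHL works near the end of that route, where it takes part in the removal of methyl groups from the sterol nucleus. ELOVL6 is an elongase of the endoplasmic reticulum that lengthens saturated and monounsaturated fatty acids such as palmitate. ODC1, ornithine decarboxylase, makes putrescine and sets the pace of polyamine synthesis. Dividing cells draw on these routes for membranes and for the polyamines that bind nucleic acids, and in mammals the sterol genes are controlled by SREBP transcription factors that respond to the cell's sterol content.

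The samples were 3 arrays of pooled total RNA from bovine IVF embryos (embryos from oocytes fertilized outside the animal) and 7 single arrays of bovine tissues: brain, heart, muscle, liver, kidney, lung and spleen. The series title calls the tissues adult, and no breed, sex, age, embryo stage or pool size was used here. The RNA was hybridised to a human expression array, so each bovine transcript was read by probes designed for the human gene of that name. The labels do not say if the embryo arrays stand for separate pools, which leaves their spread possibly technical, and among adults the spread is that between different tissues.

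Median deposited intensity ran from 99.2 in liver to 221 in the third embryo array, and precision is limited by how few arrays there are. Values below are quantile-normalised intensities on a linear scale unless stated otherwise. In all 3 embryo arrays, 6 of 6 trophectoderm markers with values (KRT8, KRT18, TFAP2C, TFAP2A, GATA3 and SFN) lay above the array median, and their summed level was 8769 to 11158 in embryos against 312 to 1002 in tissues. SFN made up most of the embryo sums, at 6224, 8428 and 6224. TFAP2A and GATA3 overlapped with tissues: TFAP2A read 279, 352 and 288 in embryos and 346 in kidney. GATA3 read 181, 167 and 228 in embryos and 173.5 in muscle. Of 10 hepatocyte markers with values 8 were brightest in liver, and their summed level was 6742 in liver and 485 to 622 in embryos. The exceptions were ALB, brightest in spleen (109) and above that in all 3 embryo arrays (129, 195 and 212), and FGA, brightest in muscle (196). Of 17 markers of cumulus and granulosa cells, the follicle cells that surround an oocyte, 6 had values, and their summed level was 587 to 903 in embryos against 425 to 1075 in tissues. STAR (0.91, 0.18 and 139.7) and CYP19A1 (79.9, 118 and 305.1) were brightest on the third embryo array, above tissues of at most 14.4 and 171. TNFAIP6 read 231 to 248 in embryos and at most 212 in tissues, whereas INHA, INHBA and VCAN read at most 11.99, 98.9 and 163 in embryos, each below its brightest tissue. Of 10 adipocyte markers 6 had values, with a summed level of 738 to 918 in embryos and 821 to 1358 in tissues. The part of these cells in the results was not tested.

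For 4 of the 6 probe sets, 1 for each gene, all 3 embryo arrays lay above all 7 tissues. That holds for 12.5% of all 6775 probe sets tested, and limma called 8.87% of them higher in embryos and 3.22% lower. Nothing is read from that count of 4, because the genes were chosen for it. The other probe sets of HMGCS1 and ELOVL6 overlapped between embryos and tissues. Separation was the same with the values as deposited and after scaling all arrays to the same median. In bulk RNA a higher share of cells that use a gene and more of its RNA per cell cannot be told apart.

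**Figure D1:**
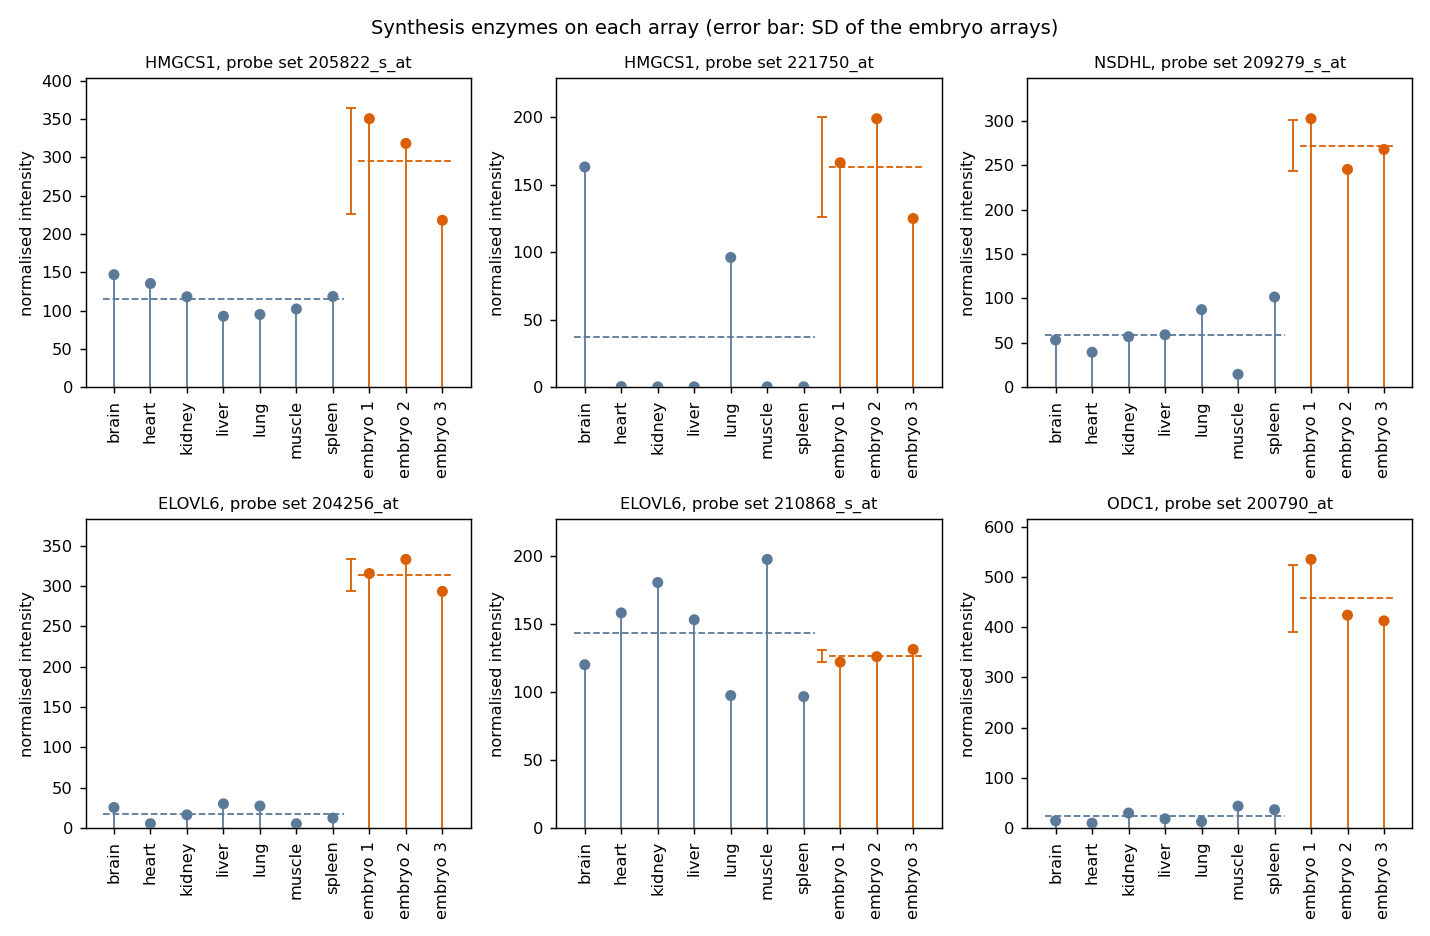
Normalised intensity (vertical axis, linear, from 0) of the 6 probe sets on each of the 10 arrays, with adult tissues in blue and embryo arrays in orange. Dashed lines are the means of the 7 tissues and of the 3 embryo arrays, and the bar between them is the SD of the embryo arrays. ODC1 reads 412 or more in embryos and at most 43.5 in tissues, ELOVL6 on 204256_at reads 294 or more against at most 30.0, and HMGCS1 on 221750_at and ELOVL6 on 210868_s_at overlap between the groups.

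HMGCS1 was read by a pair of probe sets. On 205822_s_at the embryo arrays read 351, 318 and 218, and the tissues ran from 92.7 in liver through a median of 118 to 147 in brain. Every embryo array was therefore above every tissue, the nearest pair being the third embryo array and brain. The embryo mean of 296 ± 69.2 (SD, n = 3) was 2.56 times the tissue mean of 116 ± 20.5 (SD, n = 7). On the scale of log2(intensity + 72), used for all log2 differences here and too small for changes among dim probe sets, the difference was 0.96. As deposited, the intensities of the 3 embryo arrays were closer together, at 306, 348.5 and 312.5.

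The order of the tissues for this probe set was brain, heart, spleen, kidney, muscle, lung and liver. Neighbours in that order differed by 1.16-fold or less, and with 1 array a tissue such steps have no replicate check. On this probe set liver, the main organ of cholesterol synthesis in many mammals, was thus the dimmest tissue and brain the brightest. Lung (95.05) and liver (92.7) differed by only 1.03-fold.

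On the other HMGCS1 probe set, 221750_at, the embryo arrays read 166, 199 and 125. Brain read 163 and lung 96.2, the first inside the embryo range and the second below it, while heart, kidney, liver, muscle and spleen read 0.50, 0.28, 0.33, 0.36 and 0.37. The embryo mean was 163 ± 37.0 (SD, n = 3), no brighter than brain. Deposited values under 1 made up 1.21% to 1.87% of the probe sets of an array, and such values have no usable order. The tissue mean of 37.3 ± 66.0 (SD, n = 7) describes a split between brain and lung and the other 5 tissues. The log2 difference of 1.27 averages -0.01 against brain, 0.47 against lung and 1.68 to 1.69 against those 5.

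The probe sets of HMGCS1 put brain highest among the tissues in both cases. They differed in the 5 tissues that were near 0 on 221750_at, which read 92.7 to 135 on 205822_s_at. Across the 7 tissues their log2 values had a Pearson correlation of 0.29 and a Spearman correlation of 0.50, a description over arrays that share no tissue but share the platform. The Spearman value also ranks the 5 tissues near 0, which have no usable order. Bovine sequence under either probe set was not examined here.

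NSDHL was read by 209279_s_at alone. The embryo arrays read 302, 245 and 268, and the tissues ran from 14.6 in muscle through a median of 56.9 in kidney to 102 in spleen. The dimmest embryo array was 2.41 times the brightest tissue, so the groups did not overlap. The embryo mean of 272 ± 28.7 (SD, n = 3) stood beside a tissue mean of 58.9 ± 28.9 (SD, n = 7), and the log2 difference was 1.42.

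Spleen and lung (87.4) were the brightest tissues for NSDHL, liver (59.1), kidney and brain (53.2) came next, and heart (39.4) and muscle were lowest. No tissue array read above its own median for NSDHL, and all 3 embryo arrays did. In percentiles of the array, NSDHL stood at 7.16 to 35.0 in the tissues. On the embryo arrays it stood between 74.0 and 81.2.

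ELOVL6 gave the clearest split between its probe sets. On 204256_at the embryo arrays read 316, 333 and 294, and the tissues ran from 5.24 in muscle through a median of 16.3 to 30.0 in liver. No embryo array came near a tissue. The embryo mean was 314 ± 19.9 (SD, n = 3), the tissue mean 17.4 ± 10.3 (SD, n = 7) and the log2 difference 2.12. No fold is given, because the tissue values lay at percentiles 3.93 to 11.7 of their arrays and were not shown to be above background. Liver, lung (27.3) and brain (25.4) were the brightest tissues, and heart (5.36) and muscle the dimmest.

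On 210868_s_at the same gene read 122, 126 and 131 in the embryo arrays, inside the tissue range of 96.5 in spleen to 197 in muscle. The embryo mean was 126 ± 4.66 (SD, n = 3) beside a tissue mean of 143 ± 39.7 (SD, n = 7), a log2 difference of -0.10 that turned to 0.10 with the values as deposited. Muscle, kidney, heart and liver read above the embryos and brain, lung and spleen below. Across the 7 tissues the 2 probe sets correlated at -0.46 (Pearson, log2 values) and -0.46 (Spearman), but the tissue values of 204256_at were not shown to be above background. A statement that ELOVL6 is higher in embryos therefore rests on 204256_at, and which of the probe sets follows the bovine transcript was not tested.

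ODC1 was read by 200790_at. The embryo arrays read 535, 424 and 412, and the tissues ran from 9.62 in heart through a median of 18.2 in liver to 43.5 in muscle. All embryo arrays were far above muscle. The embryo mean was 457 ± 67.6 (SD, n = 3), the tissue mean 23.5 ± 13.1 (SD, n = 7) and the log2 difference 2.47.

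Muscle, spleen (36.4) and kidney (29.8) were the brightest tissues for ODC1, above liver, brain (14.1), lung (12.7) and heart. ODC1 lay at percentiles 88.7 to 92.9 of the embryo arrays and 5.54 to 15.9 of the tissue arrays, where it was not shown to be above background, so no fold is given. With the deposited intensities it read 470, 462 and 562 in embryos and 44.5 in muscle. Placed by size among the log2 differences of the 6775 probe sets, ODC1 came 47th and ELOVL6 on 204256_at 76th. NSDHL came 240th, HMGCS1 328th on 221750_at and 577th on 205822_s_at, and ELOVL6 on 210868_s_at 4135th. The genes were chosen as high in embryos, so nothing is read from these ranks. ODC1, NSDHL and 204256_at also entered the 6775 through the embryo arrays alone.

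**Figure D2:**
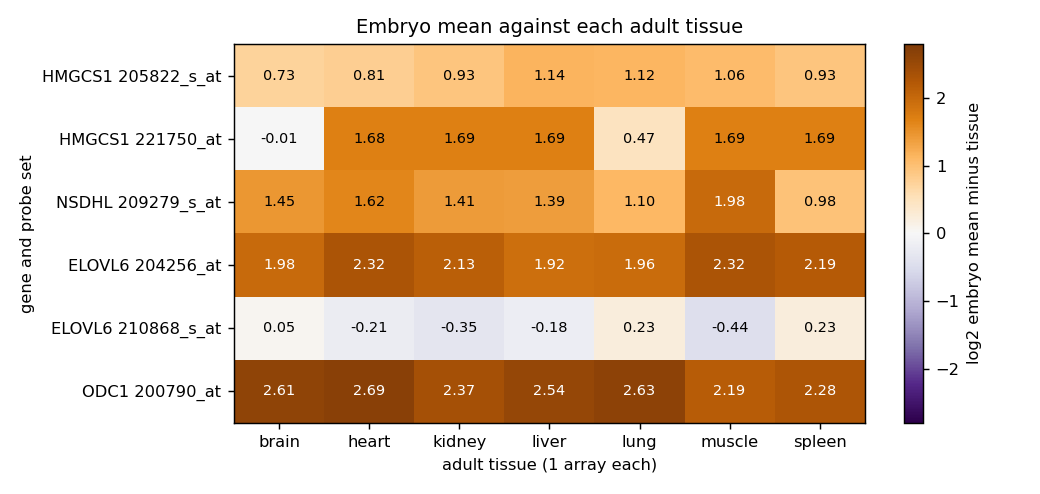
Difference between the embryo mean and each tissue array, in log2(intensity + 72), for the 6 probe sets (rows) and 7 tissues (columns), coloured from purple (embryo lower) to orange (embryo higher) with the value in each cell. ODC1 differs by 2.19 to 2.69 and ELOVL6 on 204256_at by 1.92 to 2.32 from every tissue, while HMGCS1 on 221750_at differs by -0.01 from brain and ELOVL6 on 210868_s_at changes sign between tissues.

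Set against single tissues, the embryo mean of ODC1 was 2.19 log2 above muscle and 2.69 above heart. The offset of 72 is larger than every ODC1 value in tissues and narrows that range by construction. NSDHL stood 0.98 above spleen and 1.98 above muscle. HMGCS1 on 205822_s_at stood 0.73 above brain and 1.14 above liver. These 7 differences share the same 3 embryo arrays, so they are not independent of each other.

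The readings of the 4 enzymes did not follow a common order among the adult tissues. HMGCS1 was brightest in brain, NSDHL in spleen, ELOVL6 in liver (204256_at) or muscle (210868_s_at), and ODC1 in muscle. The tissue values of ODC1 and of ELOVL6 on 204256_at were not shown to be above background. Their order among tissues, and correlations that use it, may therefore not follow the RNA. Over the 7 tissues the Pearson correlation of log2 values was -0.08 between NSDHL and HMGCS1 (205822_s_at), and -0.21 between NSDHL and ODC1. Between NSDHL and ELOVL6 it was 0.52 with 204256_at and -0.85 with 210868_s_at. Each is a description over 7 single arrays, which also share the human probes and the normalization.

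All 6 probe sets passed the filter that required a value above the array median on at least 3 of 10 arrays, but by different arrays. NSDHL, ODC1 and ELOVL6 204256_at passed through the 3 embryo arrays alone. HMGCS1 205822_s_at passed through the embryo arrays and brain, and 221750_at through 2 embryo arrays and brain. ELOVL6 210868_s_at passed through 4 tissues and no embryo array.

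The genes whose pattern was most like that of each enzyme were looked for by Pearson correlation of log2 values over 8 points, the 7 tissues and the embryo mean, among 4727 genes. For HMGCS1 these were GTF2E2 (0.96), a subunit of a general transcription factor, RAPGEF1 (0.96), an exchange factor of small GTPases, and NF2 (0.96), the merlin tumour suppressor. For NSDHL they were CCT4 (0.98), a chaperonin subunit, ATP6V0A2 (0.97), a proton pump subunit, and RRM2 (0.97), the small subunit of ribonucleotide reductase. Over the 7 tissues alone CCT4, ATP6V0A2 and RRM2 reached 0.92, 0.90 and 0.90 with NSDHL. GTF2E2, RAPGEF1 and NF2 reached 0.81, 0.78 and 0.73 with HMGCS1 (205822_s_at).

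For ODC1 the nearest were DLEC1, KIF20A, a kinesin of cytokinesis, and KRT33B, at 0.985, 0.984 and 0.984. Over the 7 tissues alone, without the embryo point, they reached 0.50, 0.64 and 0.82. The rule took the brighter ELOVL6 probe set, 210868_s_at, for which BBS4 (0.95), RNF32 (0.94) and URM1 (0.94) were nearest. For 204256_at, added after its values were seen, HSD17B14, TFAP2C and ZNF552 all stood at 0.98, and at 0.36 to 0.41 over the tissues alone. These are the highest of 4727 values over 8 points and are given as a description. The tissue values of ODC1 and 204256_at were not shown to be above background.

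The other genes of these routes were taken from 4 lists, with HMGCS1, NSDHL, ELOVL6 and ODC1 left out. Of 105 genes listed 56 had values and 39 could be tested. Differences between the 3 embryo and 7 tissue arrays were tested with limma, with Benjamini-Hochberg adjustment over all 6775 probe sets and a threshold of 0.05. Over the 4727 genes tested, each read by its brightest probe set, 7.87% were called higher in embryos and 3.19% lower, and the median difference was 0.03 log2. Of the 39 pathway genes 2 were called higher, ACSL6 and ME1, and none lower. Both are on the fatty acid synthesis list, which also holds genes that activate fatty acids.

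**Figure D3:**
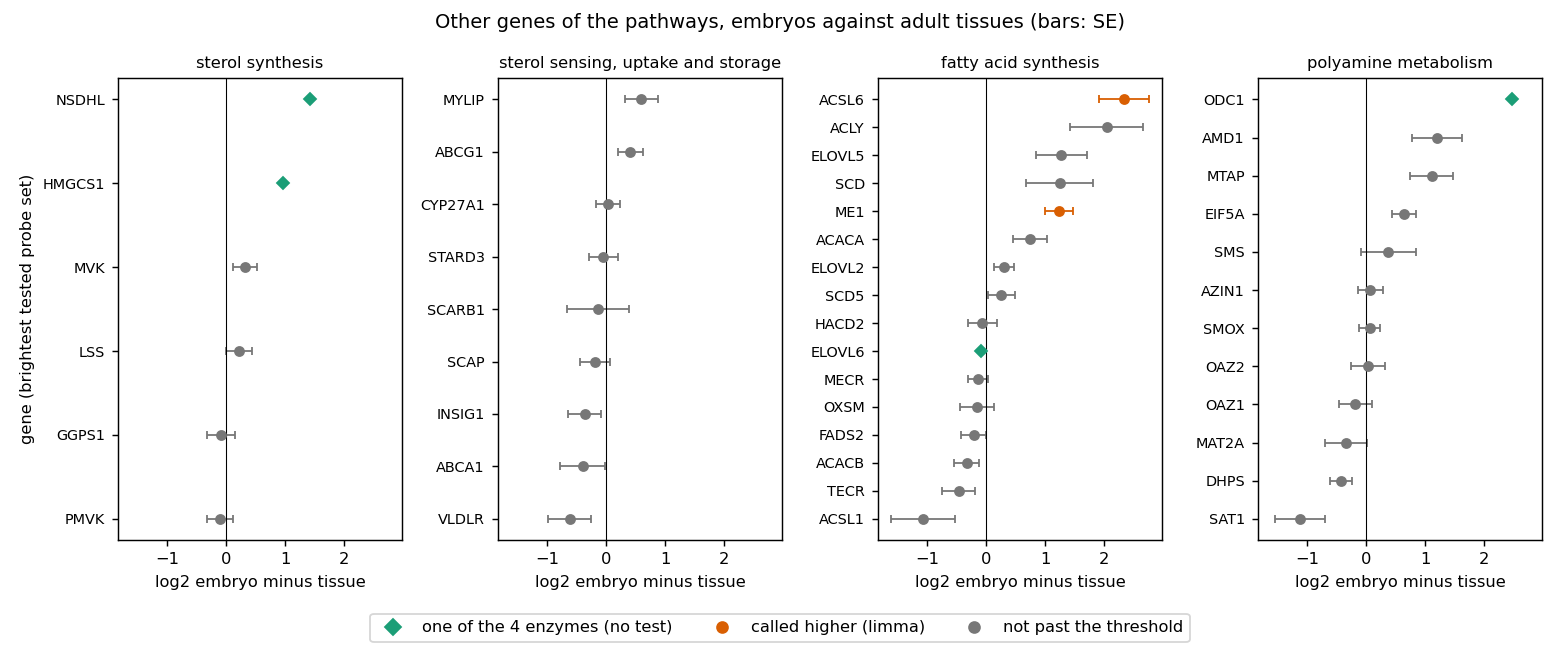
Log2 difference between embryos and tissues (horizontal axis) for the tested genes of 4 lists, each gene by its brightest tested probe set, with SE from limma as bars. Green diamonds are the 4 enzymes, drawn with no error and no test (ELOVL6 by 210868_s_at, at -0.10), orange points the called genes ACSL6 (2.34) and ME1 (1.23), and grey points genes not past the threshold.

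No other gene of the sterol synthesis route passed the test, although few could be tested. Of 22 other genes listed 10 had values and 4 were tested, and limma called 0 higher and 0 lower, with 0 at an unadjusted p under 0.05. Over all genes limma called 7.87% higher and 3.19% lower. Taking the spread from the embryo arrays alone also gave 0 calls, where that fit called 1651 higher and 1284 lower of all 6775 probe sets. With 4 genes tested, nothing is read from these counts of 0. The median difference of the 4 genes was 0.06 log2. IDI1, FDPS, FDFT1, CYP51A1, MSMO1 and DHCR7 were not analysed here.

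MVK, mevalonate kinase, read 512, 555 and 624 in embryos and 338 to 575 in tissues. Its difference was 0.32 ± 0.20 log2 (SE, limma adjusted p = 0.328). LSS, lanosterol synthase, which closes the sterol rings, read 146 ± 23.4 (SD, n = 3) against 120.004 ± 47.3 (SD, n = 7), and 0.21 ± 0.22 (SE) was its difference (limma adjusted p = 0.572). For both, embryo and tissue arrays overlapped. SQLE, squalene epoxidase, was too dim to be tested. It read 119, 98.2 and 114 in embryos and had its highest value, 333, in brain. The 2 remaining tested genes, PMVK and GGPS1, differed by -0.11 and -0.10 (named after their values were seen).

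Of 27 genes of sterol sensing, uptake and storage 15 had values and 9 were tested. Limma called 0 of them in either direction, 0 had an unadjusted p under 0.05 and the median difference was -0.14 log2. Over all genes limma called 7.87% higher and 3.19% lower, and the share at an unadjusted p under 0.05 was not taken. With 9 genes tested, nothing is read from these counts of 0. INSIG1, the sterol sensor that holds SREBP precursors back, read 121, 98.9 and 115 in embryos against 75.9 to 329 in tissues (-0.36 ± 0.28, SE, limma adjusted p = 0.426), with brain its brightest tissue. A further INSIG1 probe set, too dim to be tested, went the other way (0.27), with muscle brightest (417) and brain dimmest (45.9) among the tissues. With the spread of the embryo arrays alone 1 gene of the list was called higher and 1 lower. That fit called 1651 higher and 1284 lower of all 6775 probe sets. SREBF1 and SREBF2 were not analysed here.

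In fatty acid synthesis 17 of 32 other genes had values and 15 were tested. Limma called 2 higher (13.3% of the 15, where 7.87% of all genes were called) and 0 lower. At an unadjusted p under 0.05, 6 were higher and 0 lower. The share of all genes at that level was not taken, so nothing is read from that count. The median difference was 0.26 log2. The adipocyte markers, given above, overlapped between embryo and tissue arrays in their summed level, and their part here was not tested.

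ACSL6, which activates long-chain fatty acids by joining them to coenzyme A, read 926, 965 and 959 in embryos. The tissues ran from 22.8 in muscle through a median of 177 to 325 in brain, so no tissue reached the embryos. The difference was 2.34 ± 0.42 log2 (SE, limma adjusted p = 0.00441). ACSL1, of the same family (named after its values were seen), went the other way, at 2.91, 0.40 and 0.09 in embryos against 5.48 to 300 in tissues. The ACSL1 difference of -1.08 ± 0.55 did not pass (SE, limma adjusted p = 0.225), and a further ACSL1 probe set, too dim to be tested, gave -0.05. ME1, cytosolic malic enzyme, a source of NADPH for fatty acid synthesis, read 157, 250.4 and 179 against 23.6 to 74.5 in the tissues. Its difference was 1.23 ± 0.24 (SE, limma adjusted p = 0.00609), and like NSDHL and ODC1 it passed the filter through the embryo arrays alone, the group where it was high. Nothing is therefore read from the 13.3% beside 7.87%. With no filter the limma adjusted p of ME1 was 0.00847.

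Both calls were lost when the mean of the embryo arrays entered as a single sample, with limma adjusted p = 0.282 for ACSL6 and 0.145 for ME1. In that fit 0 genes of the 4 lists and 0.91% of all genes were called higher, and 0.0635% lower. Over 21 alternatives the limma adjusted p of ACSL6 ran from 0.000207 to 0.282, and it was 0.0524 without the second embryo array. ME1 was tested in 17 of these, with an adjusted p of 0.00146 to 0.145, and could not be tested when an embryo array was left out.

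ACLY, which makes cytosolic acetyl-CoA from citrate, the common carbon source of sterols and fatty acids, read 1268, 918 and 796 in embryos. Brain read 989.7, within that range, and the other tissues ran from 33.3 in liver to 386 in kidney. The difference of 2.04 ± 0.62 (SE, limma adjusted p = 0.0538) did not pass. Without the brain array it was 2.39 and passed. A further ACLY probe set gave -0.21 (limma adjusted p = 0.529), with 160.2 in embryos and 199 in tissues, so the ACLY probe sets disagreed as those of ELOVL6 did.

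ELOVL5, an elongase of polyunsaturated fatty acids, read 485, 369 and 336 in embryos and 5.05 in heart to 292 in liver. All embryo arrays were above all tissues, but its difference of 1.27 ± 0.43 (SE) did not pass (limma adjusted p = 0.0787). ACACA, acetyl-CoA carboxylase, the committed step of fatty acid synthesis, averaged 207 ± 31.3 (SD, n = 3) over the embryo arrays against 102 ± 56.7 (SD, n = 7) over the tissues, and also missed the threshold (0.74, limma adjusted p = 0.115). SCD, the desaturase that acts on the products of ELOVL6, read 506, 381 and 307 against 6.71 in spleen to 476 in lung (1.24 ± 0.56, SE, limma adjusted p = 0.178). Its other probe sets differed by -0.21 and -0.30. FASN and FADS1 were not analysed here.

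With the values as deposited, where the median of all tested probe sets lay 0.22 log2 above 0 against 0.04 after quantile normalization, ACLY, ACACA, ELOVL5, AMD1 and EIF5A passed as well (limma adjusted p = 0.036, 0.045, 0.0341, 0.0489 and 0.046). So did MTAP, chosen after seeing its values, which salvages methylthioadenosine from polyamine synthesis (limma adjusted p = 0.0355). Like ME1, MTAP passed the filter through the embryo arrays alone, the group where it was high, so nothing is read from its call. Its other probe sets, too dim to be tested, differed by 0.43 and -0.15 after quantile normalization. Over all probe sets 83.7% of calls were then higher in embryos, against 73.4% with quantile normalization.

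**Figure D4:**
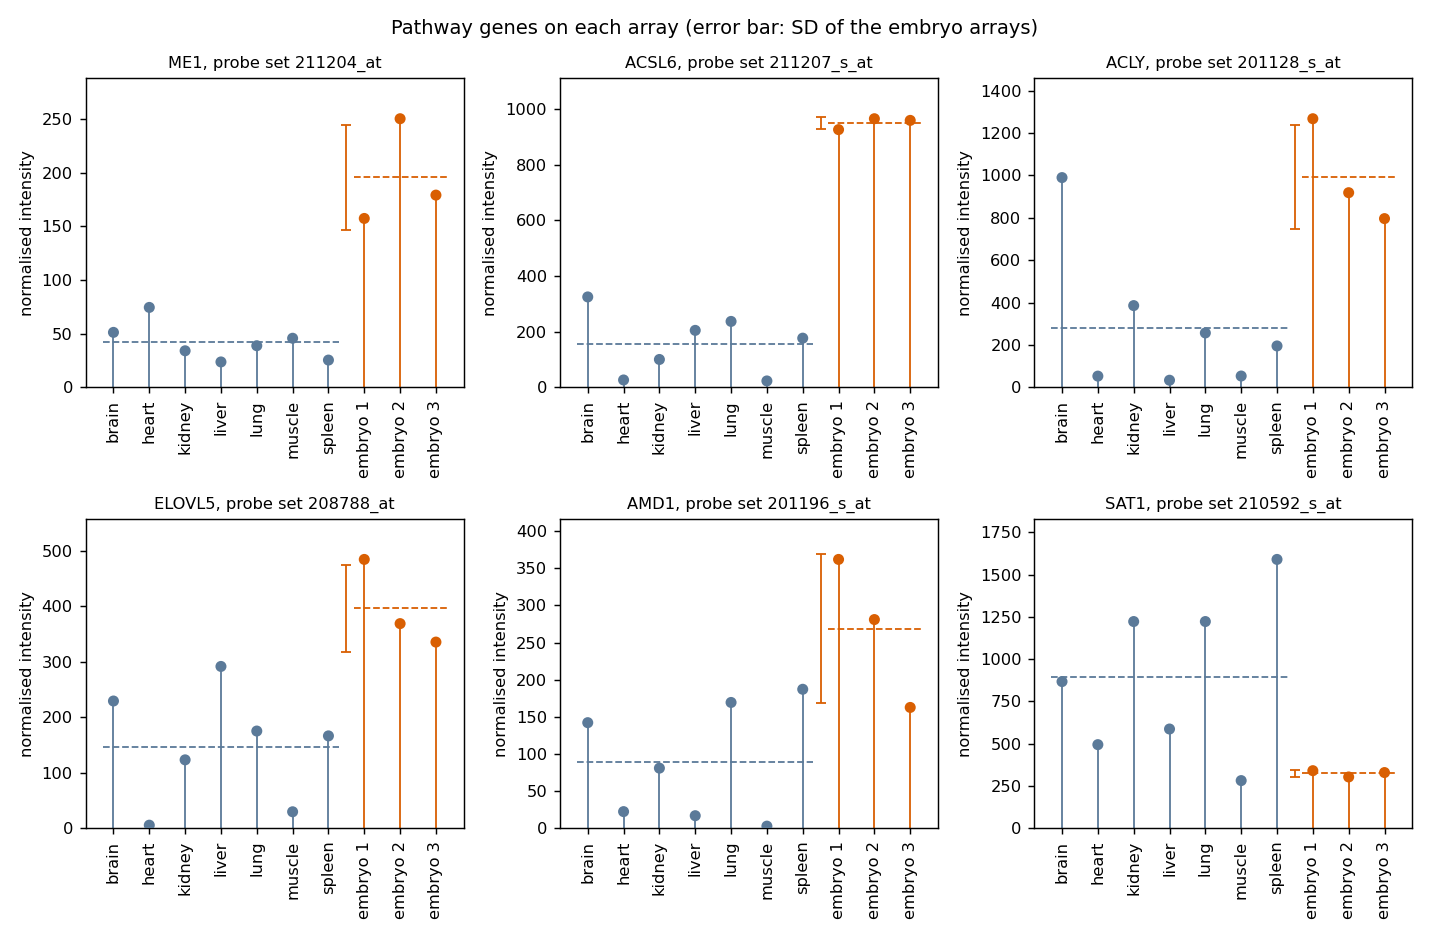
Normalised intensity (vertical axis, linear, from 0) of ME1, ACSL6, ACLY, ELOVL5, AMD1 and SAT1 on each array, drawn as for the 4 enzymes, with tissues in blue, embryo arrays in orange, means as dashed lines and the SD of the embryo arrays as a bar. ACSL6 reads 926 to 965 in embryos and at most 325 in tissues, ACLY is as bright in brain as in embryos, and SAT1 reads 302 to 339 in embryos and up to 1590.2 in spleen.

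Around ODC1, 14 of 24 other genes of polyamine metabolism had values and 11 were tested. Limma called 0 higher and 0 lower, where 7.87% and 3.19% of all genes were called, and the median difference was 0.05 log2. At an unadjusted p under 0.05, 3 were higher and 2 lower. The share of all genes at that level was not taken, so nothing is read from these counts. With the spread of the embryo arrays alone 3 were called higher and 2 lower. That fit called 1651 higher and 1284 lower of all 6775 probe sets, so nothing is read from its counts either. ODC1 itself was chosen as high in embryos, so its place beside this list shows nothing further.

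AMD1, S-adenosylmethionine decarboxylase, which supplies the aminopropyl groups of spermidine and spermine, read 362, 281 and 163 in embryos. The tissues ran from 2.48 in muscle to 187 in spleen, so the third embryo array lay inside their range. The difference was 1.20 ± 0.42 (SE, limma adjusted p = 0.0896), and a further probe set gave 0.48 (limma adjusted p = 0.117). SMS, spermine synthase, read 211 ± 45.5 (SD, n = 3) against 187 ± 179 (SD, n = 7), with 510.1 in kidney and 362 in spleen (0.37, limma adjusted p = 0.639). SRM and ARG1 were not analysed here.

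The antizyme system controls the ODC protein: antizymes such as OAZ1 direct it to the proteasome, and AZIN1, a relative of ODC without its activity, binds them. OAZ1 read 576, 524 and 467 in embryos and 350.4 to 873 in tissues (-0.19 ± 0.28, SE, limma adjusted p = 0.696). Its other probe set gave -0.06. AZIN1 on its brightest probe set read 273, 189.95 and 175 in embryos against 144 to 282 in tissues (0.07 ± 0.21, SE, limma adjusted p = 0.875). A dimmer AZIN1 probe set, 201772_at, read 403, 315 and 273 in embryos and 59.2 to 211 in tissues, and passed the test (0.98 ± 0.25, SE, limma adjusted p = 0.0234). The last AZIN1 probe set gave 0.39 (limma adjusted p = 0.574), with 87.7, 326 and 108 on the embryo arrays.

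SAT1, the acetyltransferase that starts polyamine breakdown, pointed the other way. It read 339, 302 and 328 in embryos and 281 in muscle to 1590.2 in spleen, so that muscle alone was below the embryos. The difference of -1.12 ± 0.43 (SE, limma adjusted p = 0.111) did not pass, and its other probe sets differed by -0.73 and -1.15. EIF5A, the translation factor whose hypusine residue is made from spermidine, read 362, 386 and 348 in embryos against 138 to 297 in tissues. Its difference of 0.64 ± 0.20 (SE) missed the threshold (limma adjusted p = 0.0631), while a further probe set passed at 0.81 (limma adjusted p = 0.043) and the last gave 0.03. The 2 brighter EIF5A probe sets carry the _x_at suffix, which marks probes that can also match related sequences.

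By tissue, the 16 tested genes of fatty acid synthesis, ELOVL6 included, were most often brightest in kidney (5), heart (4) and liver (3), the brightest tissues for 15.3%, 14.1% and 13.7% of all genes tested. The 12 of polyamine metabolism, ODC1 included, were most often brightest in heart (5). The 6 of sterol synthesis were brightest in brain (2), spleen (2), kidney (1) and muscle (1), where brain and spleen were brightest for 13.2% and 16.4% of all genes and muscle for 15.5%. Of the genes of that list too dim to be tested, MVD (563) and SC5D (137, with spleen at 134) were brightest in liver. ACAT2 and EBP were brightest in muscle, SQLE in brain and TM7SF2 in lung. These are counts over single arrays, with no test.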

How the data were processed

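The values deposited by the authors are linear intensities, 1 for each probe set on each of 3 embryo and 7 tissue arrays. How these intensities were computed and scaled is not stated in the labels or the file. Of 22283 probe sets, 10219 had values on all arrays and 12064 were blank on all. Groups came from the sample titles. Probe sets were named from the platform annotation (human symbols): of 10186 analysed after leaving out 33 controls, 8847 had 1 symbol, 479 several and 860 none. All 60 genes of the lists with values, the 4 enzymes and 56 others, have a bovine RefSeq gene of the same symbol. No sequence or genome of the platform was given, so no probe sequence, protein or coordinate is printed.

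Array levels (2% trimmed means) spanned a 1.90-fold range, so arrays were quantile normalized, and a true difference in total signal would be hidden by that. Values were taken as log2(intensity + 72), where 72 is the arrays' median 25th percentile. The test took probe sets that exceeded the array median on 3 or more arrays, 6775 in all, with limma 3.58.1 in R 4.3.3 (lmFit, eBayes with trend and robust, two-sided, Benjamini-Hochberg adjustment, threshold 0.05). A gene's brightest tested probe set stands for it in the lists. The p-values set the difference against the spread within the groups, which among tissues is that between different tissues and among embryos may be technical. The 3 embryo arrays were counted as separate samples, which the labels do not show. The fit was also run on simulated data, but the outcome is not given here and the calls draw no support from it.

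The 4 enzymes, the lists and the tests were chosen with earlier results of these data known. Genes named were the 4 enzymes, called genes of each list (up to 4 in each direction), 28 genes fixed whatever their result, and the 3 genes most like each enzyme. Other genes are said to be chosen after their values were seen. Alternatives covered normalization, offset, filter, eBayes settings, averaged embryo arrays, the spread of embryo arrays alone, the probe set of widest spread, and each array left out. A filter on at least 2 arrays was added after seeing the data. Figures used matplotlib 3.10.9 in Python 3.11.15.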

Additional observations from a re-analysis of the deposited data

How the results depend on the processing

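The log2 differences of the 4 enzymes kept their sign under the 15 of 21 alternatives for which they were computed, except ELOVL6 on 210868_s_at, which turned to 0.10 with the values as deposited. Their size depended on the offset by construction. With no offset they were 1.34 and 5.34 (HMGCS1, 205822_s_at and 221750_at), 2.40 (NSDHL), 4.46 (ELOVL6, 204256_at) and 4.47 (ODC1), and with an offset 4 times larger 0.53, 0.49, 0.69, 0.98 and 1.25. Leaving out each array in turn gave 0.85 to 1.14 and 1.16 to 1.49 for the HMGCS1 probe sets, 1.32 to 1.503 for NSDHL, 2.07 to 2.16 and -0.15 to -0.04 for those of ELOVL6, and 2.36 to 2.54 for ODC1.

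Over all probe sets 601 were called higher and 218 lower. These counts were 73 and 5 with averaged embryo arrays, 1651 and 1284 with the spread of the embryo arrays alone, and 63 to 636 and 27 to 295 with an array left out. Leaving out embryo array 1, 2 or 3 gave 83, 63 and 122 higher and 34, 27 and 36 lower. The filter still asked for 3 arrays. Probe sets that had passed through the 3 embryo arrays alone could therefore leave the test, as ME1 did. The part of this in the fall of the counts was not tested. Fatty acid genes called higher, 2 in the report, were 5 as deposited, 4 with the larger offset, 0 with averaged embryo arrays, 6 with the embryo spread (and 1 lower), and 0 to 3 with an array left out, at 1, 0 and 1 without embryo array 1, 2 and 3. Polyamine genes called higher, 0 in the report, were 3 as deposited, 1 with the larger offset, 1 with the filter at the 75th percentile, 2 with the probe set of widest spread, 3 with the embryo spread (and 2 lower), and 0 to 2 with an array left out (1 without heart, 1 without lung, 2 without spleen); 0 to 1 were lower, the 1 without muscle. Sterol sensing genes were called with the embryo spread alone, 1 higher and 1 lower, and sterol synthesis genes under no alternative, 0 to 0 with an array left out. AZIN1 ranged from -0.080 without the first embryo array to 0.94 without heart, where another of its probe sets was the brightest. No paired analysis was possible because each tissue has a single array and the labels number the embryo arrays alone.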

Other observations

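Some pathway genes outside the comparison were bright on a single array (chosen after their values were seen, with no test). MVD, the decarboxylase that ends the mevalonate steps, read 563 in liver and 5.995 to 17.5 in the other tissues, with 20.4, 17.6 and 16.8 in embryos. ELOVL4, an elongase of very long fatty acids, read 442 in brain and 2.52 or less elsewhere. MAT1A, an enzyme of S-adenosylmethionine synthesis known from adult liver, read 965 on the first embryo array against 22.4 and 20.7 on the others, and 4.22 in liver. ACAT2, cytosolic acetoacetyl-CoA thiolase, which acts just before HMGCS1, read 16.1, 75.2 and 329.6 in the embryo arrays, against 5.91 to 33.8 in tissues. None of these 4 genes passed the filter on dim probe sets.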
